A study of Mus musculus with 2 samples.

Results

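The cells described here are the liver barcodes that carried transcripts of Xcr1 or Clec9a, the receptor genes that mark conventional type 1 dendritic cells (cDC1), in single-cell RNA-seq of sorted liver leukocytes. A barcode was taken when at least 200 genes were detected, at most 10% of its unique molecular identifiers (UMIs, each standing for 1 captured transcript) came from mitochondrial genes, Xcr1 and Clec9a together gave at least 2 UMIs, H2-Ab1 gave at least 5, Ccr7 and Fscn1 together gave at most 1, and Cd79a gave 0. The rule took 145 of 7603 filtered barcodes, 56 of 4157 in RES and 89 of 3446 in Ctrl. The RES library came from C57BL/6 mice labelled as having resolved liver fibrosis, and the Ctrl library from uninjured C57BL/6 mice. Each library pooled liver mononuclear cells of 5 mice, sorted for CD45, the surface protein of leukocytes, and CD11b, an integrin chain of myeloid and natural killer (NK) cells. The agent that caused the fibrosis, the time after injury and the age of the mice are not given in the sources used here. Each group is 1 library, so no test between groups was possible, mice and library preparation cannot be told apart from treatment, and every interval below is a 95% interval for counting error only. PCR-amplified molecules are collapsed by their UMIs, and differences between mice are not covered by these intervals. Intervals of ratios of UMI sums treat each UMI as independent, so they do not cover the spread between cells either.

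cDC1 are a small lineage of dendritic cells that depends on the transcription factors Irf8 and Batf3. They sense dying cells through Clec9a and present material from such cells on MHC class I to CD8 T cells, a process that needs Wdfy4. They also carry Xcr1, the receptor for the chemokine Xcl1 that NK cells and CD8 T cells release. In the liver they stand beside type 2 conventional dendritic cells (cDC2), which carry CD11b, whereas cDC1 typically carry little of it. The sort on CD11b therefore limits these libraries as a source of cDC1, and shares of barcodes here are shares of CD11b-sorted cells, not of the liver. In a library of pooled cells, fewer cells of a type and fewer captured cells of it cannot be told apart.

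RES was the deeper library, with 34119806 UMIs over 4278 deposited barcodes, against 20379164 UMIs over 3691 in Ctrl. The gated cells were deep in both, with a median of 15940 UMIs (3227 to 36364) in RES and 11877 UMIs (6059 to 33804) in Ctrl. The libraries shared 56 cell barcodes. In 54 of these the RES barcode was the deeper, with a median of 29543 UMIs, and its Ctrl counterpart held a median of 629.5 UMIs, 2.11% of the RES depth. No barcode was gated in both libraries, and 5 of the 56 gated RES cells had a counterpart in Ctrl, at 539 to 799 UMIs there. Results are given with these cells included. Values without the shared barcodes are stated for the share of gated cells, for the counts of genes past 2-fold, and for single genes and lists where they moved the most.

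The members were chosen by their own UMI counts of Xcr1, Clec9a, H2-Ab1, Ccr7, Fscn1 and Cd79a, so these values are given as a description. Of the gated cells, 11 in RES and 30 in Ctrl sat at exactly 2 Xcr1 and Clec9a UMIs, just inside the threshold. Just outside it, at 1 UMI, lay 40 RES and 76 Ctrl barcodes that met all the other conditions. The H2-Ab1 condition was far from most cells: the lowest gated cell had 9 UMIs in RES and 11 UMIs in Ctrl, with medians of 110.5 in RES and 70 in Ctrl, while 2 Ctrl barcodes were left out at 4 UMIs. A UMI of Xcr1 itself was present in 35 of the 56 RES cells and 51 of the 89 Ctrl cells. The other 21 RES and 38 Ctrl cells were taken by Clec9a alone and are called Clec9a-only cells here.

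The label cDC1 was checked with Wdfy4, Naaa, Tlr3 and Ifi205, marker genes of cDC1 that the rule did not use. Naaa encodes a lysosomal amidase, Tlr3 a sensor of double-stranded RNA, and Ifi205 a member of the interferon-inducible Ifi200 family. Among the cells with an Xcr1 UMI, 33 of 35 in RES and 51 of 51 in Ctrl had a UMI of at least 3 of these 4 genes. Among Clec9a-only cells, 11 of 21 in RES and 13 of 38 in Ctrl did. The same was true of 10 of 156 cDC2-gated cells in RES (6.41%) and 5 of 211 in Ctrl (2.37%), at a median of 12229.5 UMIs in RES and 8846 UMIs in Ctrl. Wdfy4 and Naaa alone separate the gates poorly: Wdfy4 had a UMI in 71.8% of cDC2-gated cells in RES and 57.8% in Ctrl, and Naaa in 102 of 156 in RES and 95 of 211 in Ctrl. Tlr3 had a UMI in 4.49% of them in RES and 1.90% in Ctrl, and Ifi205 in 8.33% in RES and 9.48% in Ctrl. The Xcr1-positive cells therefore carried the cDC1 markers, and the Clec9a-only cells did so in part.

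**Figure D1:**
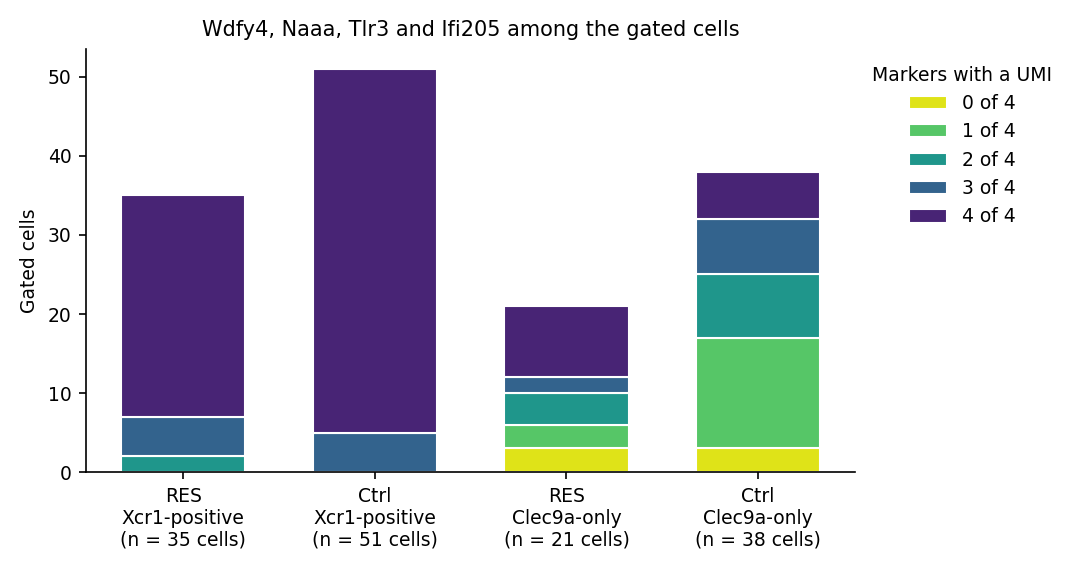
Number of gated cells (y axis) with a UMI of 0 to 4 of the cDC1 markers Wdfy4, Naaa, Tlr3 and Ifi205 (colours), in RES and Ctrl, for Xcr1-positive and Clec9a-only cells. Of the Xcr1-positive cells 33 of 35 in RES and 51 of 51 in Ctrl had at least 3 of the markers, against 11 of 21 Clec9a-only cells in RES and 13 of 38 in Ctrl.

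Genes of other cells were present among the Clec9a-only cells. At least 10 UMIs of Lyz2, lysozyme of monocytes and macrophages, were found in 7 of 21 Clec9a-only cells in RES and in 22 of 38 in Ctrl. At least 2 UMIs of Cd209a, a lectin of cDC2 and monocytes, were found in 11 of 21 in RES and 16 of 38 in Ctrl. At least 2 UMIs of the complement genes C1qa, C1qb and C1qc, which mark macrophages, were found in 1 of 21 in RES and 7 of 38 in Ctrl, and at least 10 UMIs of Siglech, a plasmacytoid dendritic cell gene, in 2 of 21 in RES and 1 of 38 in Ctrl. These shares differed between the libraries as well. The summed level of the 7 macrophage markers was 79.9 CPM (counts per 1000000 UMIs summed over the same cells) in RES and 1618 CPM in Ctrl over the Clec9a-only cells, against 20.0 CPM in RES and 43.8 CPM in Ctrl over the Xcr1-positive cells. The 8 classical monocyte markers summed to 4006 CPM in RES and 8469 CPM in Ctrl in Clec9a-only cells, and to 1875 CPM in RES and 2611 CPM in Ctrl in Xcr1-positive cells. The comparisons of single genes over all gated cells are therefore mostly given beside those in Xcr1-positive cells. No cell type is assigned to the Clec9a-only cells.

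Gated cells were a smaller share of the filtered barcodes in RES, at 1.35% (exact binomial interval 1.02 to 1.75), than in Ctrl, at 2.58% (2.08 to 3.17). The difference was -1.24 percentage points (Newcombe interval -1.90 to -0.61). Xcr1-positive cells alone gave 0.842% in RES and 1.48% in Ctrl, a difference of -0.64 points (-1.16 to -0.16), and Clec9a-only cells 0.505% in RES and 1.10% in Ctrl. RES cells were deeper, which makes a 2-UMI condition easier to meet there. With every barcode thinned to 2000 UMIs before the gate, 12 RES and 21 Ctrl barcodes remained, 0.300% in RES and 0.652% in Ctrl, a difference of -0.35 points (-0.72 to -0.04). Unthinned and without the barcodes found in both libraries, the difference was -1.38 points (-2.05 to -0.76). Barcodes of the cDC2 gate, taken by Cd209a and Flt3, were also a smaller share in RES, at 3.75%, than in Ctrl, at 6.12%. Of the 2 gates together the Xcr1 and Clec9a gate held 26.4% in RES (20.6 to 32.9) and 29.7% in Ctrl (24.6 to 35.2), intervals that overlap. The migratory gate, taken by Ccr7 and Fscn1, held 27 barcodes in RES (0.650%) and 21 in Ctrl (0.609%).

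Transcripts of Itgam, which encodes CD11b, were scarce in the Xcr1-positive cells. Its level was 21.7 CPM in RES and 16.1 CPM in Ctrl in those cells, with a UMI in 8 of 35 RES cells and 4 of 51 Ctrl cells. Clec9a-only cells had 133 CPM in RES and 110 CPM in Ctrl, and the cDC2 gate had 259 CPM in RES and 175 CPM in Ctrl. Both libraries thus held cells with a cDC1 profile and little Itgam transcript in a sort on its protein. Cd8a, which encodes a chain carried by lymphoid-tissue cDC1, gave 1 UMI in RES and 20 UMIs from 7 cells in Ctrl. Cd207, the langerin gene, gave 0 UMIs in all gated cells of either library.

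The gated cells were also set against the cDC2 gate of the same library. Of 1729 genes with at least 100 CPM in either gate of either library, 3.3% were at least 2-fold higher in the gated cells in both libraries and 3.01% at least 2-fold lower. Both libraries entered the choice of these genes, so the counts describe the gates and are not a test. Rab7b, a small GTPase of late endosomes, stood at 244 CPM in gated cells and 8.71 CPM in the cDC2 gate in RES, and at 227 CPM and 3.07 CPM in Ctrl. Irf8 stood at 1513 CPM in gated cells and 88.6 CPM in the cDC2 gate in RES, and at 1556 CPM and 149 CPM in Ctrl. The other genes at the top were Tlr3, Ifi205, Ppt1, P2ry14, Rtl8a, Sept3, Cd24a and Naaa. Ppt1 encodes a lysosomal thioesterase and P2ry14 a receptor for UDP-sugars. At the other end were Mgl2 and Clec10a, C-type lectins of cDC2, with Mcemp1, Ifitm1, Tmem176a, Dab2, Tmem176b, Emilin2, Clec4a1 and Bach1. Clec10a stood at 41.0 CPM in gated cells and 427 CPM in the cDC2 gate in RES, and at 34.5 CPM and 258 CPM in Ctrl. Itgax, which encodes the integrin CD11c of both dendritic cell types, had a log2 ratio of gated cells over the cDC2 gate of -0.42 in RES and 0.25 in Ctrl. Flt3 was used to take the cDC2 gate, so its level there is set by the gate.

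**Figure D2:**
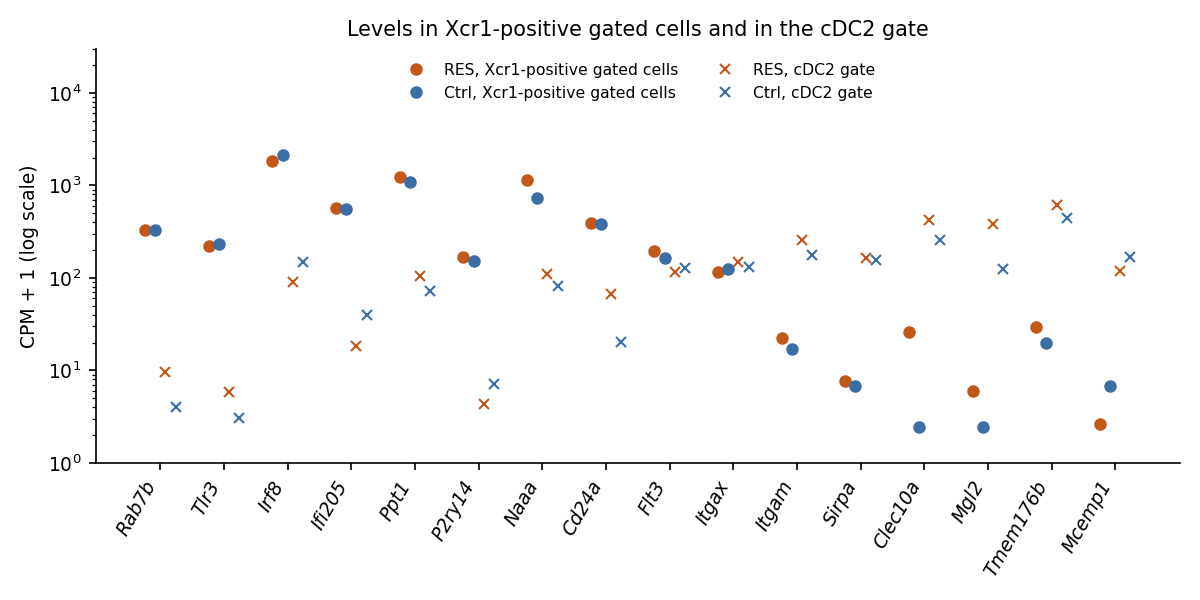
Level of 16 genes in CPM plus 1 (log scale) in Xcr1-positive gated cells (circles) and in the cDC2 gate (crosses) of RES (orange) and Ctrl (blue), 1 point per library. Genes from Rab7b to Cd24a are higher in the Xcr1-positive cells of both libraries, Flt3, a gene of the cDC2 gate, and Itgax lie within 2-fold, and Itgam to Mcemp1 are higher in the cDC2 gate.

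Over all gated cells, no measured gene of the cDC1 marker list differed by 2-fold between RES and Ctrl. Of its 16 genes, 11 reached 100 CPM in either library. The gate genes Xcr1 and Clec9a are among the 11, and their counts chose the cells, so their ratios are description only. The background was 0.725% of 1518 measured genes at least 2-fold higher in RES and 1.52% at least 2-fold lower, with a median log2 ratio of 0.03. These were 11 genes higher and 23 lower, and 12 and 31 without barcodes found in both libraries. In Xcr1-positive cells the background was 1.12% of 1513 genes higher and 0.727% lower, with a median of 0.00. There 15 marker genes were measured, Xcr1 and Clec9a again among them, and 1 of the 15, Itgae, was past 2-fold. Irf8 had 1094 UMIs in Xcr1-positive cells of RES and 1465 in those of Ctrl, a level of 1826 CPM in RES and 2138 CPM in Ctrl and a log2 ratio of -0.23 (-0.34 to -0.11). At least 10 Irf8 UMIs were found in 31 of 35 of these cells in RES and 50 of 51 in Ctrl. Batf3 had a log2 ratio of -0.26 (-0.56 to 0.04) and Wdfy4 of 0.17 (-0.02 to 0.36) in the same cells. Tlr3, Ifi205, Rab7b and Cd24a lay between -0.07 and 0.05.

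Among the markers, Itgae, Gcsam, Cadm1, Naaa and Ppt1 had higher UMI sums per total in RES, with counting intervals that excluded 0 in Xcr1-positive cells. The spread between cells is not part of these intervals. Naaa had a median of 14 UMIs per Xcr1-positive cell in RES (1 to 75) and 9 UMIs in Ctrl (2 to 23), so the cells of the 2 libraries overlapped. Its level was 1134 CPM in RES and 731 CPM in Ctrl, a log2 ratio of 0.63 (0.46 to 0.80), under 2-fold. Gcsam was at 0.77 (0.22 to 1.33) and Cadm1, an adhesion molecule of cDC1, at 0.63 (0.12 to 1.16), and Ppt1 at 0.18 (0.03 to 0.33). Itgae encodes the integrin CD103, which pairs with Itgb7 to bind E-cadherin and marks cDC1 of many peripheral tissues. It had 65 UMIs from 21 of 35 Xcr1-positive cells in RES and 29 UMIs from 10 of 51 in Ctrl, a level of 109 CPM in RES and 42.3 CPM in Ctrl and a log2 ratio of 1.36 (0.71 to 2.04). Over all gated cells, where it stayed under 100 CPM, the ratio was 1.46 (0.82 to 2.12). Thinned to 1000 UMIs, just 2 of 35 Xcr1-positive RES cells and 3 of 51 Ctrl cells kept an Itgae UMI, so a difference in the share of cells was not detectable at equal depth. Unthinned, Itgae had a UMI in 1.57% of the NK gate in RES, at a median of 4148 UMIs per cell, and in 0.742% in Ctrl, at 3450 UMIs.

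Genes that interferon gamma induces were among those with the lowest ratios of RES over Ctrl. This cytokine of NK and T cells induces chemokines such as Cxcl9 and Cxcl10, guanylate-binding proteins (Gbp genes) and immunity-related GTPases. Cxcl9 encodes a ligand of Cxcr3 that attracts activated T cells and NK cells. It had 0 UMIs in all 56 gated RES cells and 360 UMIs from 18 of 89 Ctrl cells, up to 60 UMIs in 1 cell and at least 10 in 10 cells. With RES set at the floor of 3 UMIs and the Ctrl sum taken as exact, it was 103-fold lower in RES. In Xcr1-positive cells it had 0 UMIs in 35 RES cells and 94 UMIs from 9 of 51 Ctrl cells, up to 26 in 1 cell. At the same floor it was 27.4-fold lower in RES there, and the exact interval of its log2 ratio reached up to -4.45. By the limit of 3 counts, 0 of 35 cells allows a share of up to 8.57% of RES cells with a UMI, and the exact binomial upper bound is 10.0%. Most Ctrl cells also lacked a Cxcl9 UMI, so the Ctrl level rested on a minority of them.

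Of the 22 genes on the interferon gamma list, 3 were measured at 100 CPM in the gated cells and all 3 were at least 2-fold lower in RES, against a background of 1.52%. Cxcl9 and Gbp2 were among them. In Xcr1-positive cells 2 of the list were measured and both were at least 2-fold lower, against 0.727%. All of these genes reached 100 CPM in Ctrl alone, so their lower ratios are partly set by that limit. The counts are not a test. Gbp2 had 3 UMIs in RES and 121 in Ctrl over all gated cells, a log2 ratio of -5.12 (-7.42 to -3.54), but 117 of the Ctrl UMIs were in Clec9a-only cells. In Xcr1-positive cells Gbp2 had 2 UMIs in RES and 4 in Ctrl, a ratio of -0.81 whose interval includes 0. Among the list members under 100 CPM in the Xcr1-positive cells, Ifi47 had 2 UMIs in RES and 20 in Ctrl, Serpina3g 6 in RES and 28 in Ctrl, and Iigp1 0 in RES and 14 in Ctrl. Irgm1 had 20 UMIs in RES and 23 in Ctrl, and Irf1 had 19 in RES and 27 in Ctrl.

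Summed over the list, interferon gamma genes stood at 204 CPM in RES and 590 CPM in Ctrl in Xcr1-positive cells, a log2 ratio of -1.53 (-1.84 to -1.24), and at -1.15 (-1.47 to -0.84) without Cxcl9. Genes of the type I interferon list, which antiviral interferons induce, stood at 753 CPM in RES and 998 CPM in Ctrl in the same cells, a log2 ratio of -0.41 (-0.58 to -0.23). Without Ifi27l2a, a small interferon-induced protein, that ratio was -0.05 (-0.24 to 0.14). Ifi27l2a itself had a median of 0 UMIs per Xcr1-positive cell in RES (0 to 4) and 1 UMI in Ctrl (0 to 35), with sums of 23 UMIs in RES and 176 in Ctrl and a log2 ratio of -2.74 (-3.44 to -2.11). Isg15, a ubiquitin-like protein of the antiviral response, had 24 UMIs in RES and 139 in Ctrl over all gated cells, a log2 ratio of -2.32. Of the Ctrl UMIs 116 were in Clec9a-only cells, and in Xcr1-positive cells the ratio was -0.52 (-1.59 to 0.50). Irf7, Irf9, Stat2, Bst2 and Trim30a lay between -0.20 and 0.29 in Xcr1-positive cells.

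**Figure D3:**
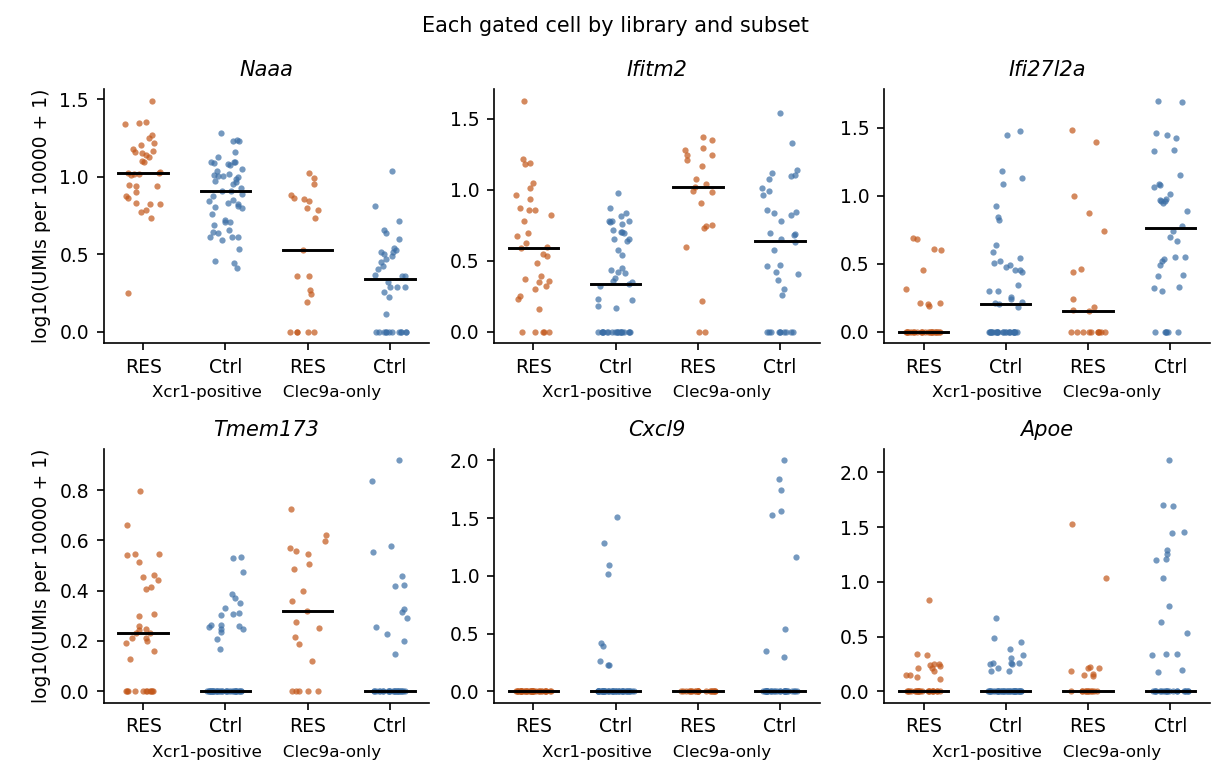
Each point is 1 gated cell, with log10 of UMIs per 10000 plus 1 on the y axis, in RES (orange) and Ctrl (blue), for Xcr1-positive and Clec9a-only cells. Bars are medians, and cells of the libraries overlap for every gene. Cxcl9 was at 0 in all 56 RES cells, and the highest Apoe values are in Clec9a-only cells.

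Other barcodes of the libraries held Cxcl9 as well. Over all other filtered barcodes the log2 ratio of RES over Ctrl was -5.14 for Cxcl9, and in the cDC2 gate it was -3.09 (-3.69 to -2.54). NK-gated barcodes had Cxcl9 UMIs in 3 of 1401 cells in RES (0.214%) and 27 of 1483 in Ctrl (1.82%), against 0 of 56 gated RES cells and 20.2% of gated Ctrl cells. Ifi27l2a differed less in the cDC2 gate, at -0.27 (-0.39 to -0.16), than in the Xcr1-positive cells. All of these ratios come from the same pair of libraries, and the difference between the gates was not tested.

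The windows before the starts of 4 interferon-related genes are shown because their ratios differed: Gbp2, Isg15 and Cxcl9 were lower in RES over all gated cells, and Ifitm2 was higher. They hold the 250 bases before the RefSeq gene start on GRCm38.p6, and capitals mark the letters GAAANNGAAA on either strand, the core of an interferon-stimulated response element. Overlapping matches run together. The windows are chr3:142620413-142620662, plus strand (Gbp2), chr4:156200819-156201068, minus strand (Isg15), chr5:92328080-92328329, minus strand (Cxcl9) and chr7:140955962-140956211, minus strand (Ifitm2).
Gbp2: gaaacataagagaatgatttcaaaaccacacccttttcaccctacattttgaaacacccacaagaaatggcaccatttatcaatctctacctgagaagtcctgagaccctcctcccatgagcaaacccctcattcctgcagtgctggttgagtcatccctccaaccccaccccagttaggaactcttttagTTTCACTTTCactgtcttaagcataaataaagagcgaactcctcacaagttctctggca
Isg15: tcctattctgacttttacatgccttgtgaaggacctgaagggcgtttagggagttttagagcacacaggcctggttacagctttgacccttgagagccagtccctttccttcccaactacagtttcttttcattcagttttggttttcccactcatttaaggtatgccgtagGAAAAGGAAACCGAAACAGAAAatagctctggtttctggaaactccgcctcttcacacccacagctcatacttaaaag
Cxcl9: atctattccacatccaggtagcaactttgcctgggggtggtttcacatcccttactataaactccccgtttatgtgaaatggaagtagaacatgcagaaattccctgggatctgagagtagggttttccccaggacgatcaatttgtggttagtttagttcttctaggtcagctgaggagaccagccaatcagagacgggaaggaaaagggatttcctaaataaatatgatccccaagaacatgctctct
Ifitm2: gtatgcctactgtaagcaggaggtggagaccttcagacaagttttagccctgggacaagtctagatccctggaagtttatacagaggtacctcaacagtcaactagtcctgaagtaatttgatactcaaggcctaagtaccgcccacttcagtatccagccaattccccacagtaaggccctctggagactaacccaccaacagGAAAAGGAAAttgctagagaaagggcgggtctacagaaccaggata
The core was in 2.98% of the 32851 windows in the RefSeq table. It was found once or more in Gbp2, Isg15 and Cybb of the 8 lowest-ratio genes with a window, and in Ifitm2 of the 8 highest-ratio genes with a window. The letters TTCNNNGAA of a gamma-activated site, searched on both strands, were in 7.02% of windows and in Zeb2 alone among these 16 genes. Cxcl9 held neither motif in this window, and Ifitm2, with 1 match, was higher in RES. The genes were ranked over all gated cells. In Xcr1-positive cells Gbp2, Isg15 and Cybb had log2 ratios of -0.81, -0.52 and -0.35, all under 2-fold.

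The named genes lie on GRCm38 (GENCODE M21) at chr5:92321347-92328079 (Cxcl9), chr12:103442167-103443680 (Ifi27l2a), chr7:140954837-140955987 (Ifitm2), chr7:140967221-140969825 (Ifitm1) and chr15:25363277-25413764 (Basp1). The counts are per gene, with no division into exons or untranslated regions. Higher in RES were, in the order of their ratio over all gated cells, Ifitm1, the long noncoding RNA AC160336.1, Basp1, Tmem173, Ifitm2, Cldnd1, Btla, Cd36, Lmnb1, Gatm, Ckb and Hist1h2ae. Of these, 6 were also at least 2-fold higher in Xcr1-positive cells: Ifitm1, AC160336.1, Basp1, Tmem173, Ifitm2 and Cd36. They make up 54.5% of the 11 genes past 2-fold over all gated cells and 35.3% of the 17 in Xcr1-positive cells. The Xcr1-positive cells are part of all gated cells, so overlap is partly built in, here and for the lower genes. Hist1h2ae, a replication histone gene, was at 0.90 over all gated cells and at -0.81 (-1.66 to 0.00) in Xcr1-positive cells. Of its 98 RES UMIs, 86 were in 4 gated cells whose barcode is also in Ctrl. Without shared barcodes its log2 ratio after adding 10 CPM was -1.37, against 0.79 with them, so it was not higher in RES in the other cells. No gated Ctrl cell had a barcode also in RES, so that comparison left cells out of RES alone. Lmnb1, of the nuclear lamina, was at 0.59 without shared barcodes and 0.91 with them on that scale.

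Ifitm2, a membrane protein that restricts virus entry, was the most abundant of the 6. It had a median of 4 UMIs per Xcr1-positive cell in RES (0 to 79) and 1 UMI in Ctrl (0 to 10), with a UMI in 30 of 35 RES cells and 31 of 51 Ctrl cells. Its level was 509 CPM in RES and 180 CPM in Ctrl, a log2 ratio of 1.50 (1.20 to 1.82), and the cells of the libraries overlapped. Thinned to 1000 UMIs per cell, 11 of 35 RES cells (31.4%) and 11 of 51 Ctrl cells (21.6%) kept an Ifitm2 UMI, with intervals that overlap. In the NK gate Ifitm2 had a UMI in 9.99% of RES and 3.91% of Ctrl cells before thinning. Ifitm1, its neighbour on chromosome 7, had 186 UMIs in RES and 2 in Ctrl over all gated cells, but the RES UMIs came from 13 of 56 cells, and 1 cell with 70 UMIs held 37.6% of them. In Xcr1-positive cells the 111 RES UMIs came from 6 of 35 cells, and the 2 highest held 94 of them, 70 in the same cell (63.1%). These 2 cells also had 79 and 34 Ifitm2 UMIs, and the 79 were 25.9% of the Ifitm2 sum of Xcr1-positive RES cells. They had 0 and 1 Irf8 UMIs, whereas Xcr1-positive Ctrl cells had 8 to 54. The part of these 2 cells in the Ifitm2 and Irf8 ratios was not tested. How reads that match several Ifitm genes were counted is not given in the sources used here, so the split between these genes is uncertain. Ifitm3, another member, had a log2 ratio of 0.39 (0.18 to 0.60) in Xcr1-positive cells.

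Tmem173 encodes STING, the adaptor of cytosolic DNA sensing. It had a median of 1 UMI per Xcr1-positive cell in RES (0 to 10) and 0 UMIs in Ctrl (0 to 3), with sums of 69 UMIs in RES and 27 in Ctrl and a log2 ratio of 1.55 (0.89 to 2.25). Basp1, a membrane-bound signalling protein, had 90 UMIs from 18 of 35 Xcr1-positive cells in RES and 29 from 14 of 51 in Ctrl, a log2 ratio of 1.83 (1.21 to 2.48). Cd36, a scavenger receptor for lipids and dying cells, had 89 UMIs in RES and 49 in Ctrl, a log2 ratio of 1.06 (0.54 to 1.59). Btla, an inhibitory receptor that binds Tnfrsf14 and is found on cDC1, had 126 UMIs from 33 of 35 cells in RES and 78 from 37 of 51 in Ctrl, a log2 ratio of 0.89 (0.47 to 1.31), under 2-fold.

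The ratios of these genes in the other gates of the 2 libraries were as follows. AC160336.1 had a log2 ratio of 1.63 in Xcr1-positive cells, 1.25 in the cDC2 gate and 1.07 in the NK gate. Basp1 had 1.80 in the cDC2 gate, and Ifitm2 had 0.68 there and 1.12 in the NK gate. Tmem173 had 1.11 in the cDC2 gate and -0.29 in the NK gate. Btla had 0.26 (-0.22 to 0.74) in the cDC2 gate. None of these differences between gates was tested.

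Past 2-fold in the Xcr1-positive cells but not over all gated cells were Itgae, Ahr, Etv6, Ctsc, Rgs1, Dusp1, Wfdc17, Ccl5, Gzma, Klrd1 and Rpl27-ps3 on the higher side. Etv6, a transcription factor of dendritic cell development, had 79 UMIs in RES and 40 in Ctrl, a log2 ratio of 1.18 (0.61 to 1.76). Ahr, the aryl hydrocarbon receptor, had 60 UMIs in RES and 29 in Ctrl and a ratio of 1.24 (0.58 to 1.94). Gzma was past 2-fold in the opposite direction over all gated cells, with 103 UMIs in RES and 333 in Ctrl and a log2 ratio of -1.48 (-1.81 to -1.15). Of the 333 Ctrl UMIs, 211 were in 1 Clec9a-only cell, and the 2 highest cells held 267. In Xcr1-positive cells Gzma had 95 UMIs in RES and 53 in Ctrl. There 1 RES cell held 66 of the 95, and 1 Ctrl cell held 39 of the 53. Ccl5, Gzma and Klrd1 are also NK genes, and the 8 NK markers summed to 367 CPM in RES and 172 CPM in Ctrl in the Xcr1-positive cells, with none of the 8 at 0 in either library. Ccl5 stood at 284 CPM in RES and 71.5 CPM in Ctrl, a log2 ratio of 1.99, and 1 RES cell held 111 of its 170 RES UMIs. Without the 3 Xcr1-positive RES cells whose barcode is also in Ctrl, the ratio was 0.68 (0.10 to 1.26) for Ccl5, -0.51 (-1.24 to 0.18) for Gzma and 0.47 (0.09 to 0.85) for the 8 NK markers together, so neither Ccl5 nor Gzma was past 2-fold. The other 9 higher genes and the 6 shared with all gated cells were past 2-fold without these 3 cells as well, from 1.05 for Rpl27-ps3 to 6.25 for Ifitm1. On the lower side, Fn1 had 18 UMIs in RES and 73 in Ctrl, and its Ctrl UMIs came from 1 cell. Retnla, lower over all gated cells too, had 0 UMIs in RES and 592 UMIs in Ctrl, all from 1 Xcr1-positive cell. That cell also held 119 Lyz2 UMIs and 15 UMIs of the C1q genes, beside UMIs of all 4 unused cDC1 markers. The Xcr1-positive cells were thus not free of macrophage transcripts.

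**Figure D4:**
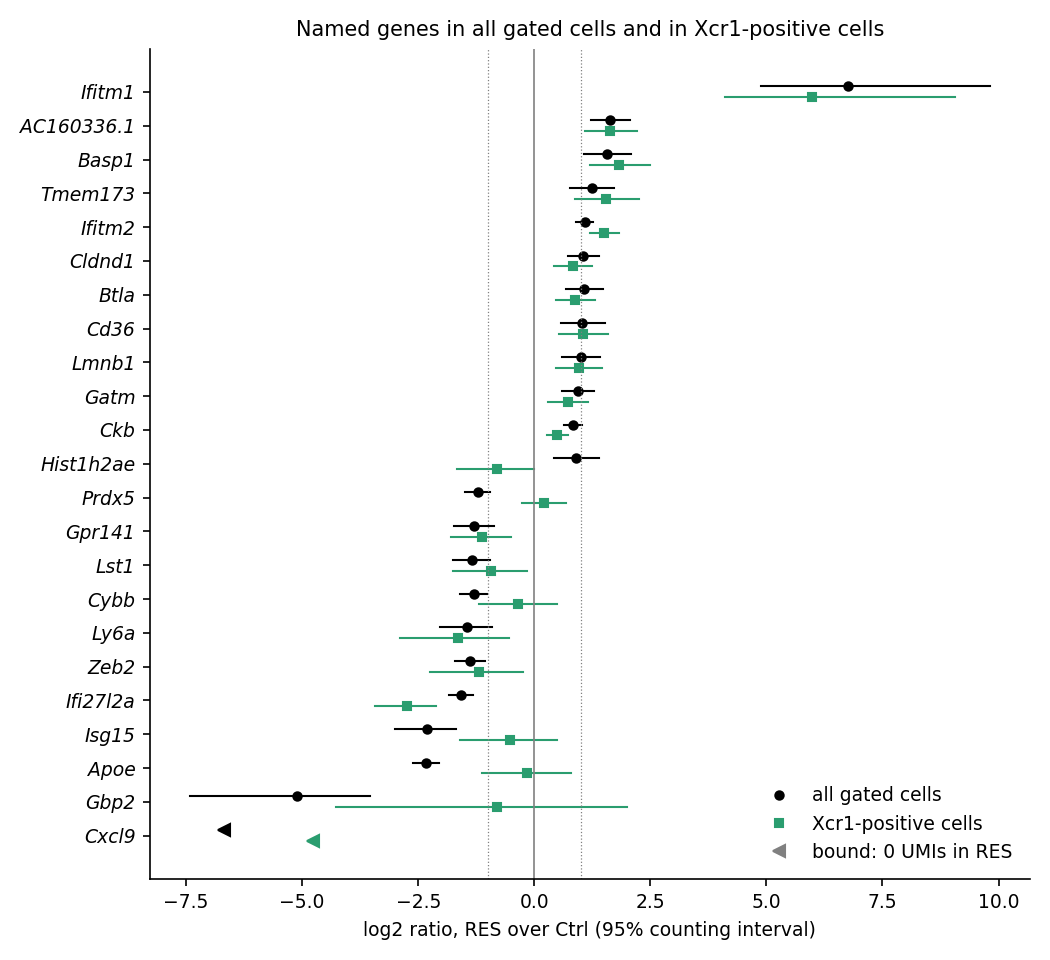
Log2 ratio of RES over Ctrl (x axis) with 95% counting intervals for the 12 highest genes and 11 of the 12 lowest, in all gated cells (black circles) and in Xcr1-positive cells (green squares). Triangles are bounds where RES had 0 UMIs, and dotted lines mark 2-fold. Gbp2, Apoe, Isg15, Cybb and Prdx5 lie close to 0 or have intervals that include 0 in Xcr1-positive cells.

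Lower in RES over all gated cells were, after Cxcl9, Gbp2, Apoe, Isg15, Ifi27l2a, Zeb2, Ly6a, Cybb, Lst1, Gpr141 and Prdx5. Of the 23 genes at least 2-fold lower, 5 were also 2-fold lower in Xcr1-positive cells, among them Cxcl9, Ifi27l2a, Gpr141 and the 1-cell Retnla, and the 5 make up 21.7% of the 23 and 45.5% of the 11. Gpr141 was at -1.13 in Xcr1-positive cells and at -0.96 (-1.64 to -0.32) without shared barcodes. Apoe, the apolipoprotein abundant in macrophages, had 127 UMIs in RES and 741 in Ctrl over all gated cells, a log2 ratio of -2.33 (-2.61 to -2.06). In Xcr1-positive cells it had 18 UMIs in RES and 23 in Ctrl, a ratio of -0.16 (-1.14 to 0.79), and 1 Ctrl Clec9a-only cell with 319 UMIs held 43.1% of the Ctrl sum. Cybb, the phagocyte oxidase subunit, was at -1.31 over all gated cells and at -0.35 (-1.20 to 0.48) in Xcr1-positive cells. Prdx5, a peroxiredoxin, was at -1.22 over all gated cells and at 0.21 (-0.26 to 0.68) in Xcr1-positive cells. Zeb2, a transcription factor that opposes cDC1 development, was at -1.38 over all gated cells and had 13 UMIs in RES and 34 in Ctrl in Xcr1-positive cells, a ratio of -1.19 (-2.24 to -0.23). There 13 of the 34 Ctrl UMIs were in 1 cell, the same cell that held the Retnla UMIs. After adding 10 CPM, Zeb2 was at -1.31 over all gated cells, at -0.31 without cells holding NK, C1q or Alb transcripts and at -0.23 with at least 3 Xcr1 and Clec9a UMIs, both under 2-fold. The summed levels of macrophage and monocyte markers given above were also lower in RES in the Clec9a-only cells, and their part in these ratios was not tested.

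Antigen presentation genes stayed within 2-fold between the libraries, as did most measured genes. Over all gated cells 0.725% of measured genes were at least 2-fold higher in RES and 1.52% at least 2-fold lower. In Xcr1-positive cells these shares were 1.12% and 0.727%. None of the 9 measured MHC class I and peptide-loading genes, the 9 MHC class II genes or the 5 immunoproteasome genes differed by 2-fold over all gated cells or in Xcr1-positive cells, where their median log2 ratios were 0.13, 0.17 and -0.00. Tap2, a chain of the peptide transporter, was the highest of the class I group at 0.59, and its partner Tap1 the lowest at -0.33. Among class II genes, Ctss, the cathepsin that degrades the class II chaperone Cd74, was at 0.61, while H2-Aa was at 0.17 and Ciita, the class II transactivator, at -0.29. Among 10 measured genes of cross-presentation and uptake of dead cells, Cd36 was 2-fold higher and Cybb 2-fold lower over all gated cells, with a list median of 0.09. In Xcr1-positive cells 9 were measured, Cd36 was higher and none was 2-fold lower, with a median of 0.04. Rac2, a GTPase of the phagosome oxidase, was at 0.47 in Xcr1-positive cells.

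Of the 10 transcription factors of the dendritic lineage measured in Xcr1-positive cells, Etv6 was 2-fold higher and none was 2-fold lower. The shares over all genes measured in these cells, also for the lists below, were 1.12% higher and 0.727% lower. Zeb2 was under 100 CPM there. Id2, which restrains other fates in cDC1 development, was at -0.30 (-0.42 to -0.19), and the median of the 10 was -0.11. Growth factor and cytokine receptors had a median of 0.23 over 6 genes, with Flt3 at 0.26 (-0.13 to 0.64). Glycolytic genes had a median of 0.36 over 7 genes in Xcr1-positive cells and none past 2-fold, with Ldha at 0.67 and Pgam1 at 0.70. Immediate-early genes, which respond quickly to stimulation, had a median of 0.33 over 13 genes, with Dusp1 at 1.05 (0.65 to 1.46). Of 11 S100 and actin-binding genes, S100a4 was 2-fold lower at -1.04 (-1.55 to -0.54), but at -0.86 (-1.39 to -0.36) without shared barcodes, and the median was -0.31 in Xcr1-positive cells and 0.07 over all gated cells. Lysosomal genes had a median of 0.17 over 10 genes in Xcr1-positive cells, where Ctsc, the protease that activates granzymes, was at 1.06 (0.45 to 1.70).

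**Figure D5:**
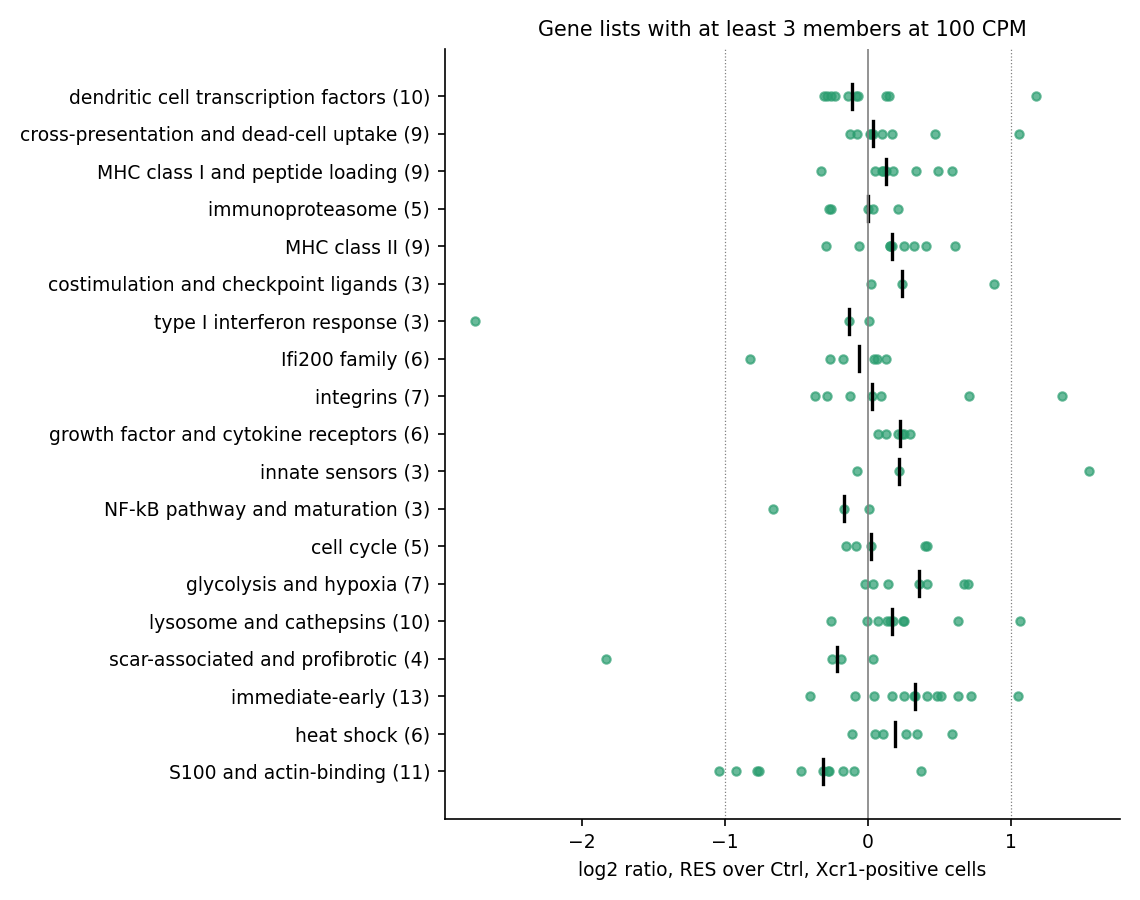
Log2 ratio of RES over Ctrl (x axis) in Xcr1-positive cells for each measured gene (green points) of the lists with at least 3 genes at 100 CPM. Black bars are list medians, the number of genes is in parentheses, and dotted lines mark 2-fold. The list medians lie between -0.31 and 0.36.

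Dividing cells were present in both libraries. Mki67 and Top2a, made by cycling cells, each had a UMI in 7 of 56 gated cells in RES and 9 of 89 in Ctrl. These shares were 12.5% (5.18 to 24.1) in RES and 10.1% (4.73 to 18.3) in Ctrl. In Xcr1-positive cells the counts were 5 of 35 in RES and 6 of 51 in Ctrl. Among NK-gated barcodes, Mki67 alone had a UMI in 1.86% in RES and 1.89% in Ctrl. The 5 measured cell cycle genes had a median log2 ratio of 0.10 over all gated cells, and of -1.15 when the 5 RES cells whose barcode recurs in Ctrl were left out. In Xcr1-positive cells the median was 0.02, and -1.08 without the 3 such cells among them. The 5 cells held 26059 to 36364 UMIs and included the 4 gated RES cells with at least 10 Mki67 UMIs. In Ctrl the 6 gated cells with at least 10 Mki67 UMIs stayed in. Both lower medians thus leave cycling cells out of RES alone. Cycling transcripts in RES thus rested on few cells, and no difference between the libraries can be read from them.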

How the data were processed

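Gel-bead single-cell 3' libraries of sorted liver cells were deposited as raw UMI count matrices of 31053 genes. Per the submitters' processing notes, the authors used bcl2fastq and Cell Ranger on mm10, and the file headers name Cell Ranger 3.1.0. The UMI counts were used as deposited, not normalized. Barcodes were filtered at 200 genes and 10% mitochondrial UMIs, and members were taken by the rule stated in the report. Members, gene lists and markers were chosen with earlier results of these data known. UMIs were summed per library and expressed as CPM, and a gene counted as measured from 100 CPM upwards in 1 of the libraries. Ratios have exact conditional binomial 95% intervals, and shares exact Clopper-Pearson ones. Genes were ranked on the log2 scale after adding 10 CPM, and the 12 at each end were named if at least 10 member cells of the higher library held a UMI. Of the 12 lowest, 1 gene is not reported here. Mitochondrial, ribosomal, sex-linked, haemoglobin and immunoglobulin genes, gate genes and markers of other cell types were left out of that ranking. Against the cDC2 gate the 10 highest and 10 lowest were named. The cDC2 gate took barcodes with at least 2 Cd209a and Flt3 UMIs, no Xcr1 or Clec9a UMI and at most 1 C1qa and C1qb UMI. The NK gate took at least 2 Ncr1 and Klrb1c UMIs with at most 1 H2-Ab1 and 2 Lyz2 UMIs. Of each gene list, members with the highest and lowest ratios were named. The intervals of single-gene ratios and the calls past 2-fold were checked on simulated counts with known folds. List counts and the intervals of shares were not checked in this way. Doublets were scored with Scrublet in scanpy 1.11.5 and left out only as an alternative: 1 RES and 4 Ctrl gated cells were among the barcodes it marked. 15 alternatives were planned and 6 were added after the data were seen. Scaling alternatives were the edgeR 4.0.16 TMM factor and DESeq2-style median of ratios.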

Additional observations from a re-analysis of the deposited data

Results flagged for a closer look

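Apoe stood out because its ratio ran in opposite directions in 2 gates that were defined differently. Its log2 ratio of RES over Ctrl was -2.33 over all gated cells (127 UMIs in RES, 741 in Ctrl) and 1.24 in the cDC2 gate (437 CPM in RES, 184 CPM in Ctrl). The cDC2 gate left out barcodes with more than 1 C1qa and C1qb UMI, and the rule for the gated cells did not. Of the 741 Ctrl UMIs, 319 were in 1 gated cell with 36 C1qa UMIs, which the cDC2 gate would leave out. The 2 ratios are therefore not like for like, and the difference between them was not tested. In Xcr1-positive cells the ratio was -0.16, and in Clec9a-only cells it was -2.47, where macrophage markers summed to 79.9 CPM in RES and 1618 CPM in Ctrl.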

How the results depend on the processing

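No paired analysis was possible because each group is 1 library, and for the same reason no library could be left out. The difference in the share of barcodes was negative under each setting tried and was -0.352 points with the gate on barcodes thinned to 2000 UMIs. Genes at least 2-fold higher and lower in RES numbered 11 and 23. They numbered 69 and 38 with the thinned gate, 26 and 15 without cells holding NK, C1q or Alb transcripts, 20 and 38 with totals free of mitochondrial and ribosomal protein genes, 30 and 57 at a minimum of 50 CPM, 2 and 11 at 200 CPM, 863 and 1126 with no minimum beyond 3 UMIs, 17 and 11 in Xcr1-positive cells alone, and 26 and 16 in those without shared barcodes. There were 6 lower with at least 3 Xcr1 and Clec9a UMIs, and 31 higher in Xcr1-positive cells without NK, C1q or Alb transcripts. Gene lists with a median past 2-fold numbered 1, the interferon gamma list, which passed the limit of 100 CPM in Ctrl alone. They numbered 2 without doublet-scored barcodes, with no minimum and without barcodes found in both libraries, and 0 with at least 3 Xcr1 and Clec9a UMIs, with the thinned gate, without cells holding NK, C1q or Alb transcripts, at 200 CPM, in Xcr1-positive cells and in cells with 3 of 4 unused markers. A list was given a median only with at least 3 measured genes. In Xcr1-positive cells the interferon gamma list had 2, both at least 2-fold lower in RES. It therefore had no median and could not be counted there. Whether that minimum also set the 0 under other settings is not given here. Named-gene values here are log2 ratios with a pseudocount of 10 CPM. Apoe reversed to 0.0233 with at least 3 Xcr1 and Clec9a UMIs and to 0.74 without cells holding NK, C1q or Alb transcripts. Prdx5 reversed to 0.31 with at least 3 UMIs, 0.10 with the thinned gate, 0.20 in Xcr1-positive cells, 0.18 in those without shared barcodes and 0.0928 in those without NK, C1q or Alb transcripts, where Gbp2 was at 0.0112, Isg15 at 0.0234 and Cybb at 0.56. Hist1h2ae, at 0.79, was negative in 5 of 18 alternatives, down to -1.91. Ifitm1, at 4.09, was at 0 with the thinned gate. Zeb2, at -1.31, was at -0.31 without cells holding NK, C1q or Alb transcripts and at -0.23 with at least 3 UMIs. The cause was not tested. Cxcl9, Ifi27l2a, Gpr141, Basp1, Tmem173, Ifitm2 and AC160336.1 kept their direction in 18 of 18 alternatives. The settings that use Xcr1-positive cells, unused markers, cycling cells or shared barcodes were chosen after the data were seen. Genes near 1 UMI per cell, and shares of cells after thinning, are limited by depth.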
